A study of Mus musculus with 36 samples.

Results

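NF-kappaB is a family of dimeric transcription factors that carries signals from cytokine receptors, toll-like receptors and cell stress to the nucleus. The 10 genes described here are 4 of its subunits (Nfkb1, Nfkb2, Rela and Relb), 2 genes whose products restrain it (Nfkbia and Tnfaip3), 3 genes that it is known to switch on (Cxcl1, Ccl2 and Icam1) and Mcl1, an anti-apoptotic member of the BCL-2 family. They were found by symbol among the 24346 symbols of the liver transcriptome and each had 1 row. Nfkbia and Mcl1 stand in the group because they stood out in earlier results of these libraries for a difference of daily rhythm between conditions. In the limma fit used here they had ranks 4 and 2 among 13215 genes by the P value of that contrast. The ranks restate the choice of these 2 genes and do not test it. For these 2 genes the rhythms, the levels at single time points and the levels in the hypoxic window are therefore descriptions, with no test. By the limma test used below, 0 of all 13215 genes had a difference of rhythms at an adjusted p under 0.05. An unadjusted P under 0.05 was found for 4.91% of them.

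In quiescent cells NF-kappaB dimers are held in the cytoplasm by IkappaB proteins such as the product of Nfkbia. Signals that activate the IKK kinase lead to the destruction of IkappaB, and the freed dimers switch on inflammatory and survival genes, among them Nfkbia and Tnfaip3, which close the loop again. In the liver the pathway is known for protecting hepatocytes from cell death induced by tumour necrosis factor and for the acute-phase reaction, and MCL-1 is known as a survival factor of hepatocytes.

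Wild-type male C57BL/6JRj mice, 16 weeks old, lived under 12 h of light and 12 h of dark with free access to chow. Intermittent hypoxia (IH) meant 60 cycles per h between 5% and 21% inspired oxygen during the rest phase, from Zeitgeber time (ZT) 0, lights on, to ZT8, for 4 weeks. Control mice received air-to-air cycles of the same kind. Livers were taken every 4 h, at ZT0, 4, 8, 12, 16 and 20, from 3 mice per condition and time point (36 libraries, 18 per condition), so that ZT4 fell inside the daily hypoxic window, ZT8 at its end and ZT12 to ZT20 after it. Expression was given as FPKM, the fragments of a gene scaled for transcript length and library size, so that levels of different genes can be set side by side. Because whole liver was sequenced, fewer cells of a type and less RNA per cell cannot be told apart.

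The FPKM of the 24066 symbols found on 1 row summed to between 540095 and 579428 in 35 libraries and to 758113 in control ZT12 replicate 2. The hepatocyte markers (Alb, Apoa1, Ttr, Serpina1a, Apob and Hnf4a) summed to at least 38754 FPKM in every library. In 3 libraries the acute-phase gene Saa1 exceeded 10000 FPKM: IH ZT0 replicate 2 (22865 FPKM), control ZT12 replicate 2 (20546 FPKM) and control ZT16 replicate 3 (12912 FPKM). In the other 33 libraries Saa1 lay between 19.1 and 2470 FPKM, with a median of 72.1. These 3 libraries touch several of the genes below, and values without them are given there.

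Of the 10 genes, 7 had a RefSeq promoter window (250 bases before to 50 after a transcription start, build GRCm38.p6, the same coordinates as mm10). The kappaB consensus, the 10-base element that NF-kappaB dimers bind, was searched on both strands in its degenerate form and was present in 1480 of all 32851 windows of this length (4.51%). The 7 genes had 10 windows, as some have more than 1, and 6 of the 10 held a match. These windows belong to 4 of the 7 genes: Nfkbia, Cxcl1, Tnfaip3 and Nfkb2. No match was found in the windows of Mcl1, Icam1 or Rela, which says only that these letters are not in this stretch. Nfkb1, Relb and Ccl2 had no window. The stretches before the start of Nfkbia and Mcl1, the genes around which the group was formed, and of Cxcl1 and Tnfaip3, whose windows hold a match, are printed 5′ to 3′ on the strand of the gene, with bases that belong to a kappaB match in capitals. They are chr12:55492648-55492897 (minus strand), chr3:95658471-95658720 (plus strand), chr5:90891115-90891244 (plus strand) and chr10:19015411-19015540 (minus strand).
Nfkbia: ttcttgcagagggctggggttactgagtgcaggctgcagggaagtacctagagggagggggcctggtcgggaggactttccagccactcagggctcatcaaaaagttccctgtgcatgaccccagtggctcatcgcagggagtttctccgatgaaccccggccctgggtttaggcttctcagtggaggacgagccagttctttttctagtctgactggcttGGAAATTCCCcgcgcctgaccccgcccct
Mcl1: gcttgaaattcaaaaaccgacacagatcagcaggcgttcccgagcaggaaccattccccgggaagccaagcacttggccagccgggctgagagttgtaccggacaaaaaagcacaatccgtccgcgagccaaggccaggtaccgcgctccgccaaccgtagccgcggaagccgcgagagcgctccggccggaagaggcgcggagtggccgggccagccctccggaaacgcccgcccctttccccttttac
Cxcl1: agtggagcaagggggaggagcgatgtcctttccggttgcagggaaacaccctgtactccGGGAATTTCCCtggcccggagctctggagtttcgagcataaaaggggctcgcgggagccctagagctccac
Tnfaip3: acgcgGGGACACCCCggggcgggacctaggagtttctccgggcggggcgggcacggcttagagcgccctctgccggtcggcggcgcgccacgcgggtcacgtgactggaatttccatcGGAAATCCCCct
Counting the base before the start as -1, the match of Nfkbia spans -29 to -20 and reads on the opposite strand. Cxcl1 has overlapping matches on both strands, from -71 to -62 and from -70 to -61. Tnfaip3 has a match from -125 to -116 and another, on the opposite strand, from -12 to -3. The E-box CACGTG, a palindrome to which clock factors can bind, was in 7.15% of all windows and, among the 7 genes, in that of Tnfaip3 alone (-33 to -28). A match describes letters and not an occupied site.

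Nfkbia (chromosome 12 of mm10, 55489410 to 55492647, minus strand) encodes IkappaB-alpha. In control its FPKM at ZT0 was 13.3, 14.1 and 10.8 in the 3 mice, at ZT4 it was 14.8, 12.4 and 14.8, and at ZT8 it was 17.9, 26.1 and 28.9. At ZT12 the control values were 22.3, 31.2 and 26.1, at ZT16 they were 22.3, 21.4 and 13.6, and at ZT20 they were 18.7, 15.5 and 16.4. Control livers were thus lowest at ZT0 and ZT4 and highest around lights off. Under IH the values were 13.4, 19.0 and 22.5 at ZT0, 21.6, 23.2 and 26.8 at ZT4, and 24.2, 28.9 and 27.1 at ZT8. They were 17.0, 21.8 and 22.2 at ZT12, 12.0, 14.3 and 13.6 at ZT16, and 18.2, 21.3 and 23.8 at ZT20. Under IH the transcript was at its highest means at ZT4 and ZT8, in the hypoxic window, and lowest at ZT16.

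At ZT4 all 3 IH livers were above all 3 control livers (23.9 ± 2.70 against 14.0 ± 1.35 FPKM, mean ± SD, n = 3 each, a ratio of 1.71), and the log2 difference was 0.73 (SE 0.18). At ZT12 all 3 were below (20.3 ± 2.88 against 26.6 ± 4.47 FPKM, a ratio of 0.766; log2 difference -0.37). The groups nearly touched there, with 22.17 FPKM as the highest IH value and 22.33 FPKM as the lowest control value. The control mean at ZT12 includes replicate 2 (31.2 FPKM), the library whose FPKM summed to 758113. At ZT4, 26.7% of all 13215 genes had every IH library above every control library, at ZT12 6.74% had every IH library below, and 322 genes (2.44%) did both. At the other times the groups overlapped, with log2 differences of 0.47 at ZT0, 0.16 at ZT8, -0.46 at ZT16 and 0.30 at ZT20. At ZT16 the overlap came from control ZT16 replicate 3 (13.59 FPKM), 1 of the 3 libraries high in Saa1. The other control livers at ZT16 held 22.25 and 21.35 FPKM, and the highest IH value was 14.29 FPKM. Pooled over ZT4 and ZT8, the mean was 25.3 FPKM under IH and 19.1 FPKM in control (log2 difference 0.44, SE 0.13). The median log2 difference of all genes was 0.07 at ZT4 and 0.03 at ZT12. With the tables rescaled by the median ratio both medians were 0 and the differences of Nfkbia were 0.62 and -0.44. Rescaled to a common FPKM sum, the median of all genes at ZT12 was 0.11 and the difference of Nfkbia there was -0.22.

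A cosine of 24 h fitted to log2(FPKM + 1) placed the peak of Nfkbia at 11.8 h after lights on in control and at 5.7 h under IH, 6.1 h earlier. Leaving out any 1 library kept the control peak between 11.5 and 12.3 h and the IH peak between 4.9 and 6.1 h. The fitted ratio of peak to trough, on FPKM + 1, was 1.94 in control and 1.57 in IH. Without the 3 libraries high in Saa1 the difference for Nfkbia was -6.7 h.

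Mcl1 (chromosome 3, 95658788 to 95663176, plus strand) was the most abundant of the 10, with 24.7 FPKM on average in control and 24.6 FPKM under IH. In control the livers held 21.5, 22.1 and 21.4 FPKM at ZT0, 24.6, 24.1 and 25.5 at ZT4, 29.8, 26.8 and 25.7 at ZT8, and 29.7, 29.9 and 25.3 at ZT12. They held 23.9, 23.7 and 25.0 FPKM at ZT16 and 22.3, 22.6 and 21.4 at ZT20. The control course rose from lights on to lights off and fell back through the night. Under IH the livers held 23.6, 26.3 and 26.3 FPKM at ZT0, 25.6, 26.0 and 26.9 at ZT4, 26.7, 26.5 and 23.8 at ZT8, and 25.5, 24.6 and 21.0 at ZT12. They held 21.9, 24.9 and 22.9 FPKM at ZT16 and 25.7, 22.6 and 22.1 at ZT20. The IH course was flatter, and each mean, in order of size, differed from the next by no more than the larger SD of that pair of groups.

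All 3 IH livers were above all 3 control livers for Mcl1 at ZT0 (25.4 ± 1.60 against 21.6 ± 0.376 FPKM, n = 3 each; log2 difference 0.22, SE 0.08), as for 4.59% of all genes. The same held at ZT4, where the log2 difference was 0.08 as deposited and -0.02 after rescaling by the median ratio, against a median of all genes of 0.07 and 0. At ZT12 the means were 23.7 FPKM under IH and 28.3 FPKM in control (log2 difference -0.25), and the ranges overlapped. The fitted peak was at 10.1 h in control and 4.3 h under IH, a difference of -5.8 h (-5.2 h without the libraries high in Saa1). The amplitude was 0.19 in control and 0.09 in IH on the log2 scale, and the ratio of peak to trough 1.30 and 1.14. Nfkbia and Mcl1 thus had fitted peaks within 2 h of each other in each condition, with a much larger swing for Nfkbia.

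**Figure D1:**
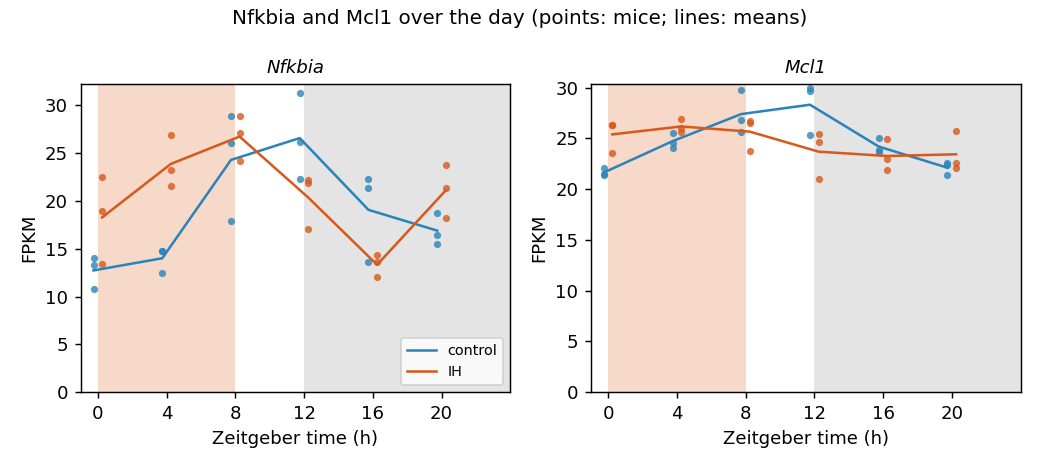
Nfkbia and Mcl1 in FPKM against Zeitgeber time in h (points are single mice, lines join the means of 3 mice, control in blue and IH in orange). The shaded hours are the hypoxic window, ZT0 to ZT8, which applied to IH mice, and the dark phase from ZT12. IH means of Nfkbia lie above control from ZT0 to ZT8 and at ZT20, and below at ZT12 and ZT16.

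Nfkb1 and Rela, which encode p50 (as its precursor p105) and p65, the subunits of the most common dimer, had fitted peaks at nearly the same time in both conditions. Nfkb1 (chromosome 3, 135584655 to 135691547, minus strand) ranged from 2.04 to 6.21 FPKM in control, with a median of 4.83, and from 3.32 to 6.35 FPKM under IH, with a median of 4.72. It was highest at ZT0 in both conditions (5.74 ± 0.503 FPKM in control, 5.71 ± 0.557 FPKM under IH, n = 3 each) and its fitted peak was at 23.4 h in both. The rhythm passed the threshold, a nominal P of 0.01 or less by limma's F test, in control (0.000503) and in IH (0.000176). Its trough in control rested partly on 1 liver: control ZT12 replicate 2 held 2.04 FPKM, the lowest of all 36, while the other livers of that group held 3.63 and 3.22 FPKM and the IH livers at ZT12 held 3.32, 4.53 and 3.87 FPKM.

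Rela (chromosome 19, 5637483 to 5648130, plus strand) was the most abundant subunit, between 11.9 and 20.4 FPKM in control (median 15.9) and between 12.7 and 20.9 FPKM under IH (median 16.4). It peaked soon after lights on, at 1.9 h in control and 1.7 h under IH, with the same amplitude of 0.19 on the log2 scale. Its rhythm passed the threshold in IH (P of 0.00105) and lay just above it in control, where P rounded to 0.01. Leaving out 1 control library moved the P in control between 0.00154 (without control ZT4 replicate 3) and 0.0277 (without control ZT0 replicate 2). It was under the threshold in control without control ZT4 replicate 3, control ZT12 replicate 1 or control ZT16 replicate 3. With median ratio scaling the P in IH was 0.0117. By the test of the difference of rhythms the courses of Rela could not be separated (adjusted p = 0.996), nor those of Nfkb1 (adjusted p = 0.927).

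Nfkb2 and Relb encode p100/p52 and RelB, the dimer of the alternative pathway. Nfkb2 (chromosome 19, 46304320 to 46312385, plus strand) held 1.36 to 4.00 FPKM in control and 1.49 to 8.79 FPKM under IH, with medians of 2.01 and 1.89. Its highest value, 8.79 FPKM, came from IH ZT0 replicate 2, one of the livers high in Saa1, where the other livers of the group held 2.33 and 2.29 FPKM. With all libraries the rhythm did not pass the threshold in either condition (P of 0.162 in control and 0.0225 in IH). Without the 3 libraries high in Saa1 it passed in both (P of 0.000539 and 2.71e-05, with 1 library left out in IH and 2 in control), with peaks at 0.3 h and 23.7 h. At ZT8 all 3 IH livers (1.73, 1.71 and 1.81 FPKM) were above all 3 control livers (1.39, 1.48 and 1.36 FPKM), as for 11% of all genes. The limma test at that time point gave a log2 difference of 0.19 (SE 0.25, adjusted p = 1). This SE comes from 1 spread shared by all 36 libraries, IH ZT0 replicate 2 among them. At ZT8 itself the SD was 0.052 FPKM under IH and 0.065 FPKM in control. Without the 3 libraries high in Saa1, 0 comparisons of the 8 genes tested at single time points passed.

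Relb (chromosome 7, 19606217 to 19629438, minus strand) was low, from 0.333 to 2.49 FPKM in control and from 0.291 to 1.24 FPKM under IH. Its P was 0.335 in control and rounded to 0.01, just above the threshold, in IH, where the peak was at 0.9 h. In IH that P was 0.0331 without IH ZT0 replicate 2 and 0.000746 without IH ZT0 replicate 1, and it was also under the threshold without IH ZT12 replicate 1, IH ZT20 replicate 1 or IH ZT20 replicate 3. Of the 8 genes tested for a difference of rhythms, Relb had the smallest P (0.0305), which did not hold after adjustment (adjusted p = 0.92).

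Taking each condition by itself, 1 of the 8 genes open to the test was rhythmic in control (Nfkb1) against 20% of all genes, and 2 were rhythmic in IH (Nfkb1 and Rela) against 39.9% of all genes. None of the 8 had a difference of rhythms after adjustment, as for 0% of all genes, and 1 of 8 had P under 0.05, where 4.91% of all genes did. A rhythm common to both conditions was independent of the choice of Nfkbia and Mcl1 apart from a shared estimate of the spread, and 5 of the 10 genes had one (limma, adjusted p under 0.05), where 55.4% of all genes did. These were Nfkb1 (adjusted p = 2.64e-06, peak at 23.4 h), Rela (7.03e-05, 1.8 h), Mcl1 (0.00373, 8.4 h), Nfkbia (0.00819, 9.5 h) and Nfkb2 (0.0114, 23.4 h; 0.0653 with quantile normalization). Without the 3 libraries high in Saa1 there were 7, with Ccl2 and Relb added. The common peaks of Nfkb1, Nfkb2 and Rela thus fell around lights on, and those of Nfkbia and Mcl1 later in the light phase. For Nfkbia and Mcl1 the common peak lies between the peaks of the conditions. These were at 11.8 h in control and 5.7 h under IH for Nfkbia, and at 10.1 h and 4.3 h for Mcl1.

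Tnfaip3 (chromosome 10, 19000910 to 19015657, minus strand) encodes A20, a ubiquitin-editing enzyme that shuts off signalling to NF-kappaB. It was the lowest of the 10 genes, with medians of 0.327 FPKM in control and 0.343 FPKM under IH, and control ZT12 replicate 2 held 2.87 FPKM, while no other liver held more than 0.661 FPKM. At ZT20 all 3 IH livers (0.582, 0.420 and 0.596 FPKM) were above all 3 control livers (0.218, 0.358 and 0.264 FPKM), as for 11.8% of all genes. That difference did not pass the test (log2 difference 0.26, SE 0.21, adjusted p = 1). The SE comes from the spread shared by all 36 libraries, control ZT12 replicate 2 among them, and not from ZT20 alone. At ZT20 the SD was 0.098 FPKM under IH and 0.071 FPKM in control. Without control ZT12 replicate 2 the SE of Tnfaip3 at ZT12 was 0.09. No rhythm passed the threshold in control (P of 0.325, and 0.971 without the libraries high in Saa1) or in IH (P of 0.568, and 0.573 without them).

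Cxcl1 (chromosome 5, 90891241 to 90893115, plus strand) encodes a chemokine that attracts neutrophils. It had the widest range of the group, from 1.93 to 133.1 FPKM in control (median 3.98) and from 0.627 to 14.1 FPKM under IH (median 3.76). At ZT4 all 3 IH livers (2.70, 3.14 and 4.06 FPKM) were below all 3 control livers (14.9, 4.53 and 4.30 FPKM), as for 7.79% of all genes, and the test gave a log2 difference of -0.86 (SE 0.92, adjusted p = 0.659). The coefficient of variation between the mice of a group had a median of 58.3% over the 12 groups for Cxcl1, against 6.36% for Mcl1 and 13.2% for Nfkbia. Differences of Cxcl1 between conditions therefore have wide errors, and the SE at ZT4 uses the spread shared by all 36 libraries. Without the libraries high in Saa1 the P of a rhythm of Cxcl1 was 0.0632 in control and 0.185 in IH.

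Ccl2 (chromosome 11, 82035571 to 82037453, plus strand), a chemokine for monocytes, was low, from 0.107 to 9.41 FPKM in control and from 0.0967 to 2.75 FPKM under IH, with medians of 0.463 and 0.395. Its highest value came from control ZT12 replicate 2 (9.41 FPKM), where the other livers held 0.190 and 0.219 FPKM. Without this library the common rhythm of Ccl2 passed the test (adjusted p = 0.0033, peak at 23.6 h), and with it the adjusted p was 0.689. The rhythm in control also passed without it (P of 0.00564, against 0.881 with all libraries), and in IH it had a P of 0.029 with all libraries, and 0.00499 without IH ZT12 replicate 2.

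Icam1 (chromosome 9, 21015985 to 21028817, plus strand), an adhesion molecule that leukocytes bind, lay between 2.95 and 11.9 FPKM in control and between 2.49 and 13.3 FPKM under IH, with medians of 4.06 and 3.50. At ZT4 the IH livers held 3.73, 3.49 and 3.13 FPKM and the control livers 6.72, 3.46 and 4.30 FPKM, and at ZT8 the IH livers held 2.59, 2.88 and 3.25 FPKM and the control livers 4.27, 2.95 and 3.26 FPKM. The means in IH were lower at both times, and the ranges overlapped. Over ZT4 and ZT8 the log2 difference was -0.27 (SE 0.12), with an adjusted p of 0.169 (0.0428 before adjustment, limma). No rhythm passed the threshold in control (P of 0.972, or 0.0276 without the libraries high in Saa1) or under IH (0.325, or 0.484 without them).

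**Figure D2:**
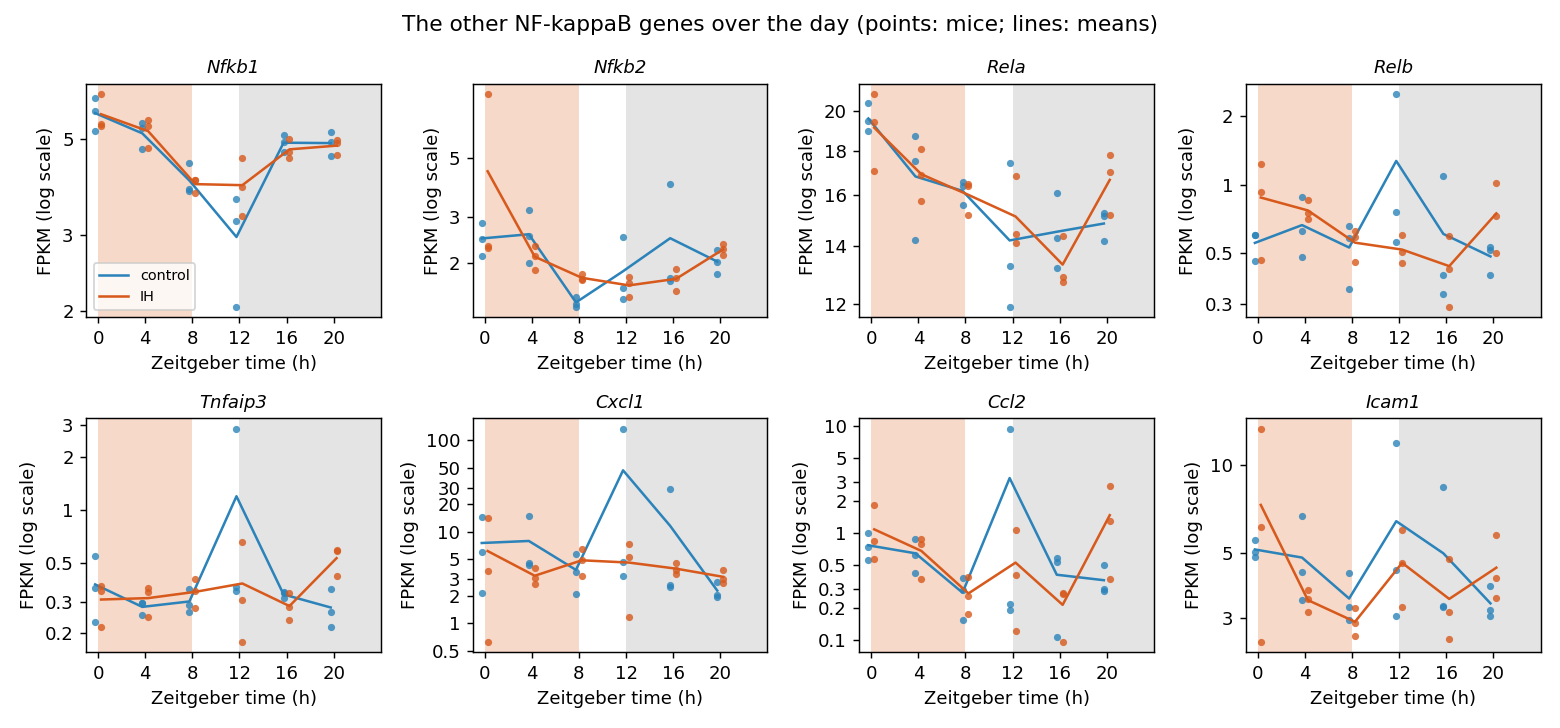
The other 8 genes in FPKM on a log scale against Zeitgeber time in h (points are single mice, lines join the means of 3 mice, shading as for Nfkbia and Mcl1). Nfkb1 and Rela run together in both conditions, and the control means of Relb, Tnfaip3, Cxcl1, Ccl2 and Icam1 at ZT12 are carried by 1 of 3 mice.

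None of the 10 genes differed in level between IH and control over all time points (limma with time point as a factor, 0 of 10 at an adjusted p under 0.05 and 0 of 10 at an unadjusted P under 0.05). Of all genes, 0.303% were higher and 0.053% lower in IH at that threshold, and 10.8% had an unadjusted P under 0.05. The log2 difference, IH minus control, was 0.14 for Nfkbia (SE 0.10, adjusted p = 0.629), and 0.00 for Mcl1 (SE 0.04, adjusted p = 0.986). For the subunits it was 0.04 for Nfkb1 (SE 0.05), 0.02 for Rela (SE 0.04), 0.03 for Nfkb2 (SE 0.10) and 0.00 for Relb (SE 0.09). The standard error was thus 0.05 or less for Mcl1, Nfkb1 and Rela. For the targets it was -0.48 for Cxcl1 (SE 0.37), 0.00 for Ccl2 (SE 0.19), -0.10 for Icam1 (SE 0.15) and, for Tnfaip3, -0.05 (SE 0.09). Cxcl1 averaged 4.34 FPKM under IH and 13.4 FPKM in control, and without control ZT12 replicate 2 its log2 difference was -0.22.

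In the hypoxic window, over ZT4 and ZT8, 0 of the 8 genes open to the test passed it. Of all genes, 6.05% were higher and 1.93% lower in IH, and 27.1% had an unadjusted P under 0.05, as Icam1 did among the 8. The tests at each time point share 1 estimate of the spread over all 36 libraries. Of 48 comparisons, 0 passed (0.324% of comparisons over all genes did), and 3 of 48 had an unadjusted P under 0.05 (10.2% over all genes). All 3 were at ZT12: Nfkb1 higher in IH by 0.32 (SE 0.11, adjusted p = 0.0896), Relb at -0.49 (SE 0.20, adjusted p = 0.133) and Tnfaip3 at -0.49 (SE 0.21, adjusted p = 0.153). For each of these genes control ZT12 replicate 2 held the value furthest from the IH livers. Leaving out either of the other control livers at ZT12 brought all 3 genes under the threshold, with adjusted p from 0.0277 to 0.0488 without control ZT12 replicate 1 (15.6% of all genes called) and from 0.0143 to 0.0251 without control ZT12 replicate 3 (23.6% of all genes called). Leaving out replicate 2 itself brought 0 of the 8 under it, with log2 differences at ZT12 of 0.14 for Nfkb1 (SE 0.09), -0.13 for Relb (SE 0.16), 0.01 for Tnfaip3 (SE 0.09) and -0.02 for Cxcl1 (SE 0.79).

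**Figure D3:**
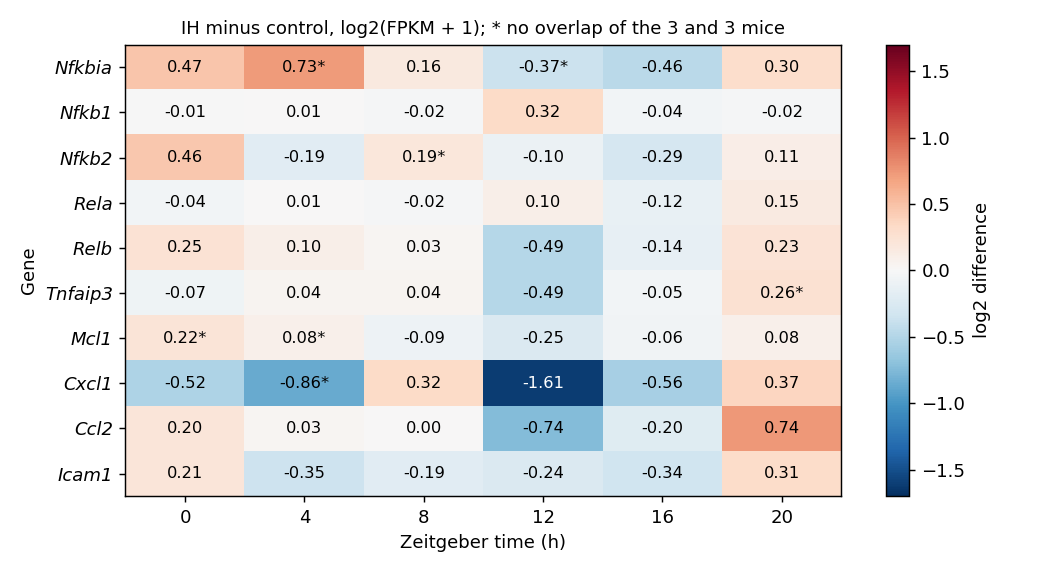
Log2 difference of the means, IH minus control, on log2(FPKM + 1) for each of the 10 genes and 6 time points (3 mice per condition and time point; red is higher in IH, and a star marks groups that did not overlap). The groups did not overlap in 7 of the 60 comparisons, 4 of them of Nfkbia and Mcl1 and 3 among the 48 of the other 8 genes (17.7% of comparisons over all genes), and the difference furthest from 0, -1.61 for Cxcl1 at ZT12, is one in which they overlapped.

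The 3 livers high in Saa1, 1 from IH and 2 from control, had much of the group raised at once. Of the 10 genes, 7 had their highest value of the 3 mice in IH ZT0 replicate 2, 8 in control ZT12 replicate 2 and 7 in control ZT16 replicate 3. Of all genes tested, 23.4%, 27.7% and 24.9% had theirs in these livers. Because the livers were picked by an acute-phase gene, these counts are descriptions.

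Icam1 held 13.3, 11.9 and 8.44 FPKM in the 3 livers, the highest values of all 36, where the other 33 held 2.49 to 6.72 FPKM. Relb held 1.24, 2.49 and 1.09 FPKM there, again the 3 highest, where the others held 0.291 to 1.02 FPKM. Cxcl1 held 14.1, 133.1 and 29.7 FPKM, or 6.48, 33.7 and 11.7 times the mean of the other mice in each group, while the other 33 livers held 0.627 to 14.9 FPKM with a median of 3.65. Icam1 and Relb therefore set these livers apart from all others, and Cxcl1 set apart control ZT12 replicate 2 and control ZT16 replicate 3. Nfkb2 held 8.79, 2.51 and 4.00 FPKM, which ranked 1, 6 and 2 of 36.

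Tnfaip3 and Ccl2 stood out in control ZT12 replicate 2 alone, at 8.04 and 46.1 times the mean of its group mates. In the same liver Nfkb1 (2.04 FPKM) and Rela (11.9 FPKM) were the lowest of all 36. In this liver, whose FPKM summed to 758113, 62% of all genes tested had their lowest value of the 3 mice. Nfkbia did not follow the targets: it was the highest of its 3 mice in control ZT12 replicate 2 (31.2 FPKM), the middle one in IH ZT0 replicate 2 (19.0 FPKM) and the lowest in control ZT16 replicate 3 (13.6 FPKM). Mcl1 was within 1.09 times the mean of its group mates in all 3.

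Among the lists of cell type markers, only that of neutrophils was above all of the other 33 livers in each of these 3 livers. The neutrophil markers found (S100a8, S100a9, Retnlg, Cxcr2 and Csf3r, 5 of 6 listed, Cxcr2 with a mean under 0.1 FPKM) summed to 210.8 FPKM in control ZT12 replicate 2, to 14.4 FPKM under IH ZT0 replicate 2 and to 11.7 FPKM in control ZT16 replicate 3. In the other 33 livers they summed to at most 6.46 FPKM. The 7 Kupffer cell and macrophage markers summed to 188.7 FPKM in control ZT12 replicate 2, 54.8 FPKM under IH ZT0 replicate 2 and 52.7 FPKM in control ZT16 replicate 3, against at most 69.8 FPKM elsewhere. The 5 cholangiocyte markers summed to 66.8 FPKM in IH ZT0 replicate 2, the highest of all livers, to 56.1 FPKM in control ZT16 replicate 3 and to 31.5 FPKM in control ZT12 replicate 2, against at most 60.5 FPKM elsewhere. Stellate cell, sinusoidal endothelium and lymphocyte markers were not above the other livers. In IH ZT0 replicate 2, control ZT12 replicate 2 and control ZT16 replicate 3, stellate markers summed to 65.1, 54.4 and 58.1 FPKM (at most 101.3 elsewhere). In the same order, endothelium markers summed to 44.3, 49.7 and 44.0 FPKM (at most 64.7 elsewhere). Lymphocyte markers summed to 1.11, 2.29 and 1.25 FPKM (at most 2.50 elsewhere). The part of these cell types in the values of Cxcl1, Ccl2, Icam1, Relb and Tnfaip3 was not tested.

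**Figure D4:**
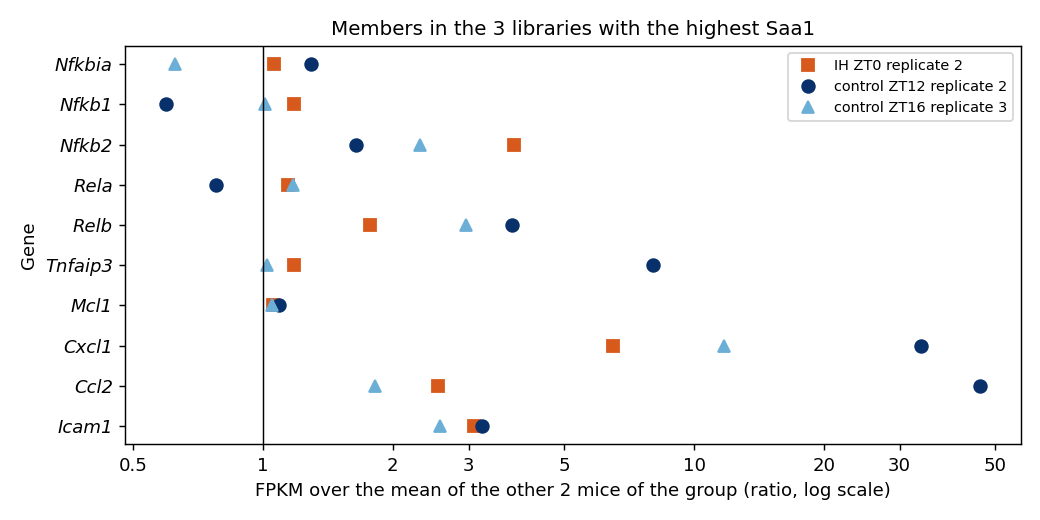
Each of the 10 genes in the 3 libraries with Saa1 above 10000 FPKM, as the ratio of its FPKM to the mean of the other 2 mice of the same group, on a log axis (squares, circles and triangles are the 3 libraries, and the vertical line marks a ratio of 1). Cxcl1 lies at 6.48 to 33.7, Nfkbia between 0.623 and 1.29, and Mcl1 at 1.05 to 1.09.

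The rest of the pathway was examined through lists of its parts. Over all time points none of the genes tested in these lists passed the adjusted threshold. Of all genes, 0.303% were higher and 0.053% lower in IH. The counts were 0 of 6 other IkappaB genes and Rel and 0 of 10 genes of the IKK complex and its upstream kinases. They were 0 of 11 receptors, 0 of 4 ligands, 0 of 13 adaptors and 0 of 11 negative regulators or ubiquitin editors. They were 0 of 15 other targets and 0 of 15 genes of the BCL-2 family. The median log2 difference of these lists lay between -0.03 and 0.04, and that of all genes was 0.03.

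Over ZT4 and ZT8, 1 of 10 genes of the IKK list, 1 of 13 adaptors, 1 of 4 ligands and 1 of 15 BCL-2 genes passed, where 6.05% of all genes were higher and 1.93% lower in IH. Tab2, which links ubiquitin chains to the kinase TAK1, was lower in IH, with a log2 difference of -0.26 (SE 0.06, adjusted p = 0.0238), and so was Traf3, an adaptor that restrains the alternative pathway (-0.23, SE 0.04, adjusted p = 0.0118). At ZT4 the livers held 0.945, 0.880 and 0.783 FPKM of Traf3 in IH and 1.28, 1.30 and 1.22 FPKM in control. Ltb, which encodes lymphotoxin beta, a ligand of the alternative pathway, was higher by 0.25 (SE 0.06, adjusted p = 0.0264), at 0.287, 0.588 and 0.414 FPKM under IH and 0.107, 0.160 and 0.107 FPKM in control at ZT4. The 6 lymphocyte markers, of which Cd3d and Ms4a1 had a mean under 0.1 FPKM, summed to 1.09, 2.50 and 1.53 FPKM under IH and 1.09, 1.26 and 1.46 FPKM in control at ZT4, and over all libraries to between 0.785 and 2.50 FPKM under IH and between 0.953 and 2.29 FPKM in control. Over ZT4 and ZT8 the log2 difference was 0.11 for Cd3e (SE 0.04, adjusted p = 0.125) and 0.17 for Cd79a (SE 0.10, adjusted p = 0.304), and their part in the values of Ltb was not tested. Bcl2l11 encodes BIM, a pro-apoptotic protein that MCL-1 can bind, and it was higher by 0.36 (SE 0.08, adjusted p = 0.0289). At ZT4 it held 1.68, 1.66 and 1.59 FPKM under IH and 1.32, 1.09 and 0.928 FPKM in control, and at ZT8 2.07, 2.12 and 2.42 FPKM under IH and 1.01, 1.44 and 2.00 FPKM in control. At both times all IH livers were above all control livers for Bcl2l11 (26.7% and 11% of all genes), while Mcl1 itself had a log2 difference of -0.01 over the same time points.

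A common daily rhythm passed the adjusted threshold for 8 of 11 negative regulators or ubiquitin editors and 6 of 10 IKK genes. It did so for 6 of 13 adaptors, 6 of 15 BCL-2 genes, 5 of 15 other targets and 4 of 11 receptors. It also passed for 2 of 6 IkappaB genes and Rel, and for 1 of 4 ligands, against the 55.4% of all genes. Tnip1, which works with A20, peaked at 23.8 h (adjusted p = 2.13e-07) and Tab2 at 0.7 h (5.44e-09), near Nfkb1, Nfkb2 and Rela. The lymphotoxin beta receptor Ltbr peaked at 9.0 h (2.63e-07), with nearly the same time in control (8.8 h) and under IH (9.3 h). Nfkbia had a common peak near this, at 9.5 h, but its peaks within the conditions were at 11.8 h (control) and 5.7 h (IH). Bcl2l11 peaked at 7.7 h (6.08e-05), with an amplitude of 0.19 in control and 0.38 in IH on the log2 scale, while Bok, another BCL-2 gene, peaked at 0.9 h (6.97e-07). The other IkappaB gene with a rhythm, Nfkbie, peaked at 23.7 h (0.0362). None of the genes tested in these lists had a difference of rhythms after adjustment (limma), as for 0% of all genes.

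Over the 12 group means of log2(FPKM + 1), the genes whose pattern was most like that of Nfkbia, among 9812 with a mean of at least 1 FPKM, were Mepce (Pearson r = 0.921), Clk4 (0.911), Rab10os (0.876), Rph3al (0.873) and Kcmf1 (0.867). Clk4 had means of 11.5, 12.0, 14.3, 15.1, 12.9 and 13.4 FPKM from ZT0 to ZT20 in control and of 13.9, 14.4, 17.0, 14.2, 12.6 and 14.5 FPKM under IH, with its highest mean at ZT12 in control and at ZT8 in IH. Rab10os also had its highest control mean at ZT12, while Mepce, Rph3al and Kcmf1 had theirs at ZT8. Those most like Mcl1 were Slc44a3 (0.885), Coa7 (0.879), Drg1 (0.847), Ppap2c (0.839) and Gng10 (0.83). These are descriptions over means that share libraries, and the likeness was the basis of the choice.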

How the data were processed

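Liver mRNA of 36 mice was sequenced after poly(A) selection with a stranded kit. The authors used TopHat with mm10 for alignment and Cufflinks for quantification, and deposited FPKM per gene and mouse in 1 table per condition. The submitters' processing notes name TopHat2 2.1.1 and Cufflinks 2.2.1, and the annotation is not given in the sources used here. Both tables have the same column names, so the condition was read from the name of the table. No counts were given, so the depth of each library is unknown and no counting intervals were made.

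Of 24883 rows, the 280 symbols on more than 1 row were left out, which left 24066 symbols, of which 13215 with a mean of at least 0.1 FPKM were tested, all 10 members among them. FPKM as deposited were analysed as log2(FPKM + 1) with limma 3.58.1 (moderated, with an intensity trend) in R 4.3.3, with Benjamini-Hochberg adjustment over all 13215 genes. A fold change on this scale understates that of low genes. Rhythms were tested with a cosine and sine of 24 h, at a nominal P of 0.01 or less within a condition and at an adjusted p under 0.05 otherwise. The rhythm software of the study (BIO_CYCLE) and its Cyber-T test were not used here. Scripts were tested on simulated data. Coordinates come from GENCODE M21 on mm10 and promoter sequences from RefSeq on GRCm38.p6. Figures were drawn with matplotlib 3.10.9.

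Members and lists were chosen with earlier results of these data known. The text names all members, the 5 genes most like Nfkbia and the 5 most like Mcl1, and from each list genes past a threshold, at most the 4 with the smallest P per test. Alternatives were another pseudocount, filters, scalings, a replicate block, sample weights, other time terms and leaving out libraries.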

Additional observations from a re-analysis of the deposited data

Results flagged for a closer look

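Nfkbia moved in opposite directions at different times: its log2 difference, IH minus control, was 0.73 at ZT4, with all 3 IH livers above all 3 control livers, and -0.37 at ZT12, with all 3 below. Of all genes, 26.7% were likewise above at ZT4, 6.74% below at ZT12, and 2.44% did both. With FPKM rescaled to a common sum the differences of Nfkbia were 0.72 at ZT4 and -0.22 at ZT12. The difference between these time points was not tested, because Nfkbia was chosen by the contrast that contains it.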

How the results depend on the processing

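The number of the 8 genes rhythmic in control was 1 and became 2, by the addition of Rela, with no filter, FPKM rescaled to a common sum, quantile normalization, sample weights or a spread shared by both conditions. It became 3 without the libraries with Saa1 above 10000 FPKM, by the addition of Nfkb2 and Ccl2, and lay between 1 and 2 when 1 library was left out. The number rhythmic in IH fell from 2 to 1 with median ratio scaling, where Rela was lost, rose to 3 with FPKM rescaled to a common sum or sample weights (Relb added, P of 0.00962 and 0.00328) and with a spread shared by both conditions or without the libraries high in Saa1 (Nfkb2 added, P of 0.00817 and 2.71e-05), and lay between 2 and 3 when 1 library was left out. The number of common rhythms was 5 and lay between 4 (quantile normalization, without Nfkb2) and 7 (sample weights, or without the libraries high in Saa1, where Ccl2 with an adjusted p = 0.00798 and Relb with 0.0405 were added). Of the comparisons at single time points, between 0 and 3 passed when 1 library was left out, the 3 only without control ZT12 replicate 1 or replicate 3. The number of calls over all time points, over ZT4 and ZT8 and for the difference of rhythms stayed at 0 in all alternatives.

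A few log2 differences that never passed a test changed sign. Over all time points Rela was -0.03 with median ratio scaling and -0.02 with quantile normalization. Nfkb1 was -0.01 and Tnfaip3 0.03 with sample weights, and they were -0.01 and 0.04 without the ZT12 libraries of both conditions. Tnfaip3 was 0.04 without the libraries high in Saa1. Over ZT4 and ZT8, Ccl2 was -0.01 with median ratio scaling and -0.01 with quantile normalization, and Cxcl1 was 0.32 at ZT8 alone. When 1 library was left out, Nfkb2 over all time points lay between -0.06 and 0.08, Tnfaip3 between -0.07 and 0.04, and over ZT4 and ZT8 Cxcl1 lay between -0.47 and 0.02 and Ccl2 between -0.03 and 0.07. The causes were not tested.

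Replicate numbers are shared between groups, and the sample titles do not say whether they pair the mice. Over 18 pairs of same-numbered mice the mean correlation of deviations was 0.05 (from -0.18 to 0.29), with 6 pairs above 0.1. A low correlation does not settle whether same-numbered mice were handled together. With a replicate block the calls were the same in number, with 5 common rhythms, 1 rhythm in control, 2 in IH and 0 elsewhere. Depth is unknown, and the lowest genes, Tnfaip3, Relb and Ccl2, lie under 1 FPKM in most groups, where the log2(FPKM + 1) scale shrinks differences.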
